A study of Mus musculus with 13 samples.

Results

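The lysosomal cathepsins described here are 10 of the 21073 genes measured in 13 mouse mRNA sequencing libraries, chosen by symbol: Ctsa, Ctsb, Ctsc, Ctsd, Ctsh, Ctsk, Ctsl, Ctss, Ctsz and Lgmn. Each of the 10 matched 1 row of the deposited table. They are the main peptide-cutting enzymes of the lysosome, the acidic organelle in which cells break down material that they have taken up. Most are cysteine proteases of the papain family (Ctsb, Ctsc, Ctsh, Ctsk, Ctsl, Ctss, Ctsz), Ctsd is an aspartic protease, Ctsa is a serine carboxypeptidase, and Lgmn, also called asparaginyl endopeptidase, cuts after asparagine and helps to mature other cathepsins. In monocytes, macrophages and dendritic cells these enzymes also cut antigens, and the invariant chain, for display on MHC class II, a step in which Ctss is best known. Cystatins and some serpins hold them in check.

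All mice were of the C57BL/6J background and were immunized with the myelin peptide MOG35-55 in complete Freund's adjuvant. DKI mice are double knock-in animals in which Stat5a and Stat5b carry changes that prevent STAT5 tetramers and leave dimers. The changes are in the protein, so the transcript level of either gene does not check the genotype. The 3 myeloid groups hold 1 library each, all from DKI mice with experimental autoimmune encephalomyelitis (EAE), a paralytic disease of the cord that serves to model multiple sclerosis, for which pertussis toxin was also given. They are spinal cord APCs (antigen-presenting cells, named as monocyte-derived by the submitters), spinal cord monocytes and bone marrow monocytes, sorted on day 14. No WT myeloid library was analysed here. The 4 Th17 groups came from mice immunized without pertussis toxin: spleen and lymph node cells taken on day 14 were expanded for 3 days with the peptide under Th17 conditions and sorted for CD4+ T cells. They are DKI cultures with CCL17, a chemokine, added (n = 3), DKI cultures of the same experiment without CCL17 (n = 3), DKI cultures of a separate set (n = 2) and WT cultures (n = 2). Nothing in the labels says whether replicates came from separate mice, so p-values measure the spread between these libraries, which may be technical.

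Estimated reads assigned to genes ranged from 12600000 to 31800000 per library. The labels were set against marker genes. Summed over 8 T cell markers, RPKM (reads corrected for the length of the gene and for library depth) was 1650 to 2401 in the Th17 libraries, 23.6 in the APCs, 21.7 in the cord monocytes and 0.468 in the marrow monocytes, where Cd3e, Cd3g, Cd4 and Lck were listed at 0. Summed over 10 myeloid markers it was 14710 to 20410 in the myeloid libraries. The sorted CD4+ libraries also held myeloid transcripts, at 554.5 to 837.6 in the 6 libraries of the CCL17 experiment, 13.3 and 27.1 in the separate DKI cultures and 77.2 and 36.9 in the WT cultures, with all 10 markers above 0 in each. Microglia markers, of a cell type that no label names, summed to 499.3 in the APCs, 178.5 in the cord monocytes and 16.7 in the marrow monocytes, where Siglech was listed at 0. In the CCL17 experiment, both libraries numbered 1 stood apart from numbers 2 and 3: within a group, number 1 differed from the others by 25.2 to 27.8 times the counting variance per gene, and numbers 2 and 3 from each other by 2.22 and 2.36 times.

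The cathepsin pool was largest in the spinal cord myeloid cells. The 10 genes summed to 15210 RPKM in the APCs, 10290 in the cord monocytes and 3588 in the marrow monocytes. In such bulk libraries, more cells of a type and more RNA per cell cannot be told apart. Among Th17 libraries the sum was 1439, 1853 and 1892 in DKI cultures with CCL17, 1642, 2349 and 2382 in DKI cultures without CCL17, 500.2 and 631.3 in the separate DKI cultures, and 715.9 and 600.0 in WT cultures. Levels below are given as log2(RPKM + 1) unless RPKM is named. For Ctsa, Ctsb, Ctsh, Ctss and Ctsz the order of group means was APCs, cord monocytes, marrow monocytes, the CCL17 experiment and then the other Th17 cultures. Ctsd, Ctsl and Lgmn were lower in marrow monocytes than in either group of the CCL17 experiment. Ctsc, the exception among the myeloid groups, was highest in cord monocytes, then marrow monocytes, then APCs. Ctsk, an enzyme best known for breaking down collagen in osteoclasts, was highest not in a myeloid sort but in DKI cultures without CCL17. Neighbours in these orders often did not differ beyond the spread of their libraries: libraries with and without CCL17 overlapped for 9 of the 10 genes, and DKI and WT libraries for Ctsa, Ctsc, Ctsd, Ctss and Ctsz.

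**Figure D1:**
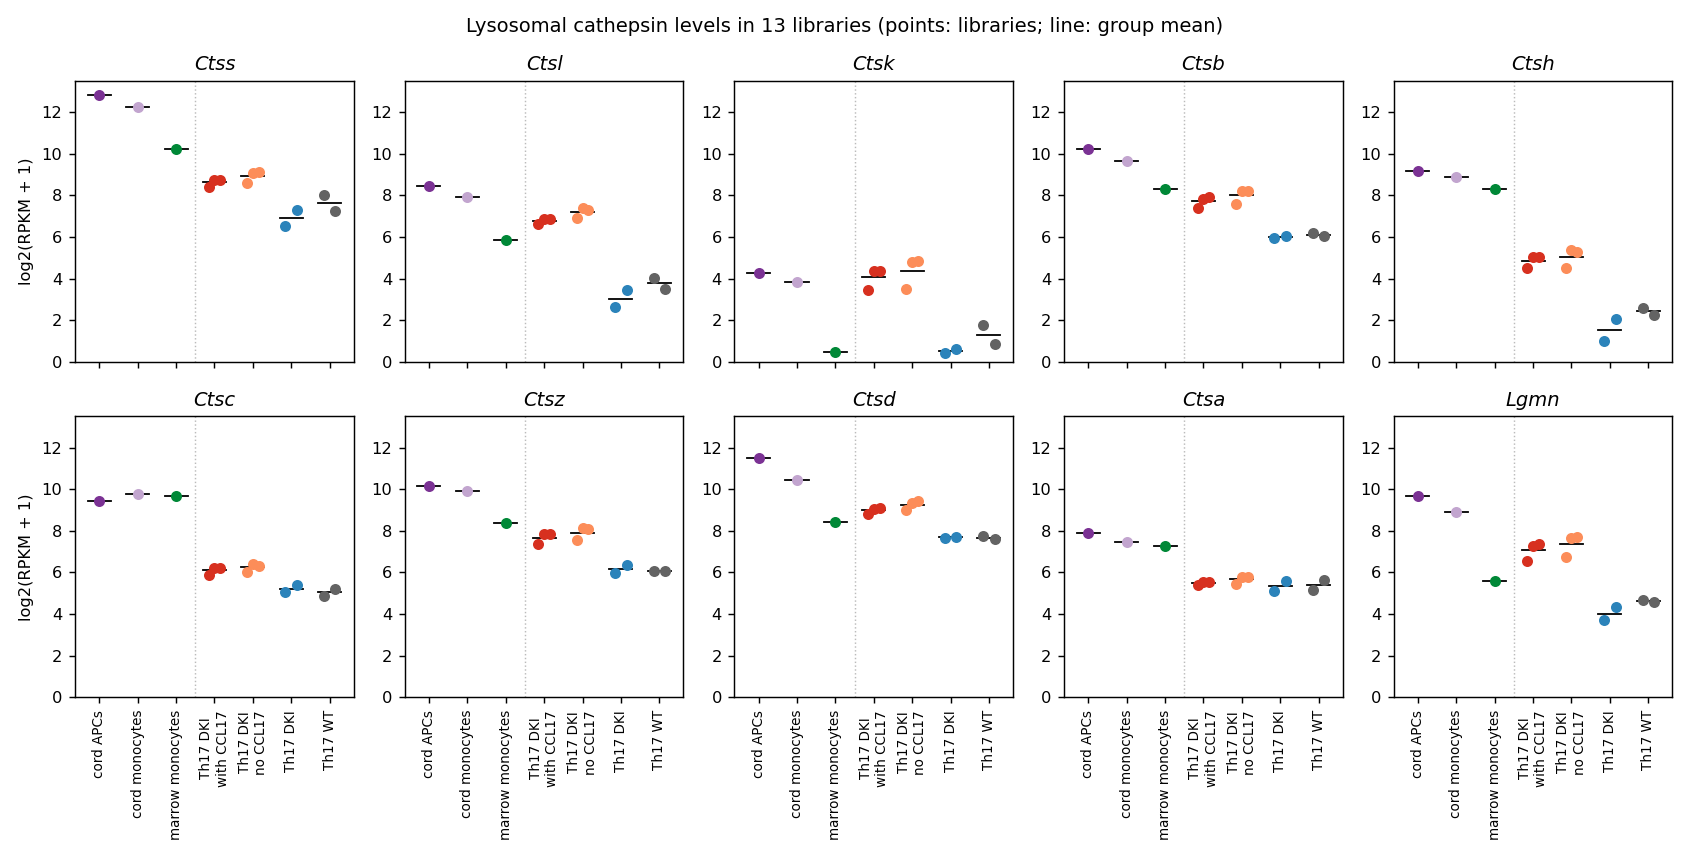
Level of each cathepsin gene in 13 libraries, as log2(RPKM + 1) on the vertical axis, with 1 panel per gene, points for libraries and a line for the group mean; groups run from spinal cord APCs at the left to WT Th17 cultures at the right, and the dotted line separates myeloid from Th17 groups. Ctss reaches 12.84 in the APCs, and Ctsk stays below 5 in every library.

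Ctss, the cysteine protease that trims the invariant chain, led the pool in the myeloid libraries. It was at 7329 RPKM in the APCs and 4867 RPKM in the cord monocytes, in each case the gene of rank 7 among all 21073, and at 1184 RPKM in the marrow monocytes, rank 22. It made up 48.2% of the pool in APCs, 47.3% in cord monocytes and 33.0% in marrow monocytes. Ctsd, the aspartic protease, took 19.0% in APCs, 13.6% in cord monocytes and 9.55% in marrow monocytes, and 27.7% to 40.1% in the 10 Th17 libraries, where it ranked first in all but WT library 1. Ctsc, also called dipeptidyl peptidase I, activates the granule serine proteases of neutrophils and T cells. Its share was 4.59% in APCs, 8.56% in cord monocytes and 23.1% in marrow monocytes, and at most 6.46% in Th17 libraries. Ctsh, an aminopeptidase, varied most across libraries, by 8.18 on the log2 scale, between 9.17 in APCs and 0.99 in DKI library 1. Ctsa, which also protects lysosomal sialidase and beta-galactosidase, varied least, by 2.77.

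**Figure D2:**
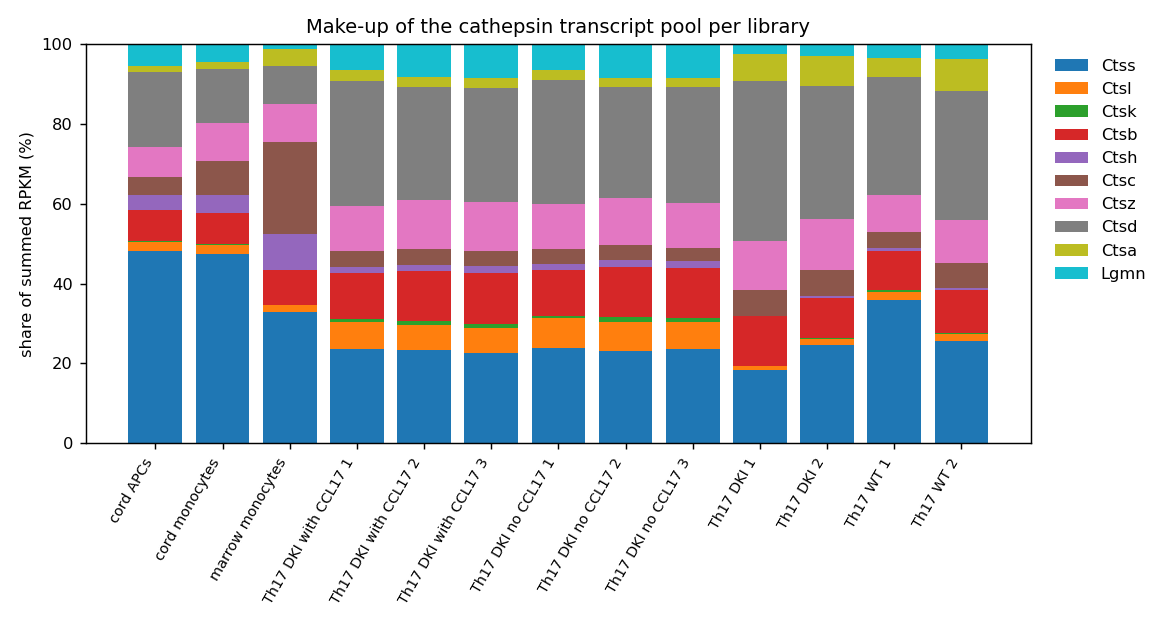
Make-up of the cathepsin transcript pool: each bar is 1 library, and its segments are the percent of the summed RPKM of the 10 genes that each gene contributes. Ctss fills 48.2% of the bar of the APCs and 47.3% of that of the cord monocytes, Ctsc fills 23.1% in marrow monocytes, and Ctsd fills 27.7% to 40.1% in the Th17 libraries.

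How alike the genes' patterns were was measured as the root mean square difference between their means over the 7 groups, each gene centred on its own mean, among 9718 genes reaching 5 RPKM in at least 1 group. Genes were not scaled to a common range, so those that vary little can come out closer. Ctsb, which has both endopeptidase and dipeptidase activity, and the carboxypeptidase Ctsz (cathepsin X) were the closest pair of cathepsins, at 0.12 on the log2 scale. For Ctsz the gene most alike was Tmem86a, at 0.09, and for Ctsa it was Atp13a2, which encodes a lysosomal polyamine transporter, at 0.04. The gene most like Ctss was Ccl3, an inflammatory chemokine, at 0.23. Cd302 was nearest to Ctsc, at 0.23. Ctsk had Slc7a11, the cystine transporter, at 0.28, and Ctsl had Hmox1, heme oxygenase 1, at 0.40. Ctsd had Cd34 at 0.24 and Lgmn had the amino acid transporter Slc7a8 at 0.28. Ctsh and Ctsk were the least alike among the cathepsins, at 2.65.

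Ctsk (Entrez 13038, chr3:95499210-95509387) and Ctss (Entrez 13040, chr3:95526786-95556405) lie side by side on mouse chromosome 3, with 17399 bases between them (GRCm38.p6). Their patterns nevertheless differed, with a root mean square difference of 1.875 between the centred group means. Marrow monocytes, at 0.46, were the lowest group for Ctsk, while for Ctss, at 10.21, they lay above every Th17 group. Ctsa overlaps Neurl2 and Pltp, Ctsb overlaps Fdft1, and Ctsz overlaps Nelfcd by 12 bases. Ctss overlaps the pseudogene Hmgb1-ps5 by 628 bases. Whether reads were counted by strand was not given in the sources used here, so reads from those shared stretches cannot be assigned with certainty.

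Promoter windows (250 bases before to 50 after each annotated start, from RefSeq on GRCm38.p6) were found for 8 of the 10 genes, all but Ctsb and Ctsh. The palindrome CACGTG, an E-box bound by basic helix-loop-helix factors including TFEB and its relatives, occurred in 4 of the 8, against 8.09% of all 27025 genes with a window. It was present in Ctsa, Ctsd, Lgmn and Ctsl. GAGGAAG, a core bound by PU.1, the myeloid transcription factor encoded by Spi1, was searched on both strands and occurred in Ctsk, Ctss and Ctsc, 3 of the 8, against 15.36% of all genes. A core of interferon-response elements (GAAA, then any 2 bases, then GAAA), chosen after the Ctss sequence had been read, was also searched on both strands and occurred in Ctss, against 3.99% of all genes. Ctsk and Ctss are shown with the E-box genes because they are neighbours with unlike patterns. Capitals mark the matches, on the strand of the gene.
Ctsa chr2:164833741-164833802 (plus strand): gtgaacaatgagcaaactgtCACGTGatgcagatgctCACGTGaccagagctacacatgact
Ctsd chr7:142387900-142387945 (minus strand): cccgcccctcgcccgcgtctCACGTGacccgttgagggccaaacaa
Lgmn chr12:102439116-102439161 (minus strand): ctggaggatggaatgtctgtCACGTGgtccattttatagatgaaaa
Ctsl chr13:64370731-64370770 (minus strand): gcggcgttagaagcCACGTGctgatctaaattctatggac
Ctsk chr3:95499131-95499177 (plus strand): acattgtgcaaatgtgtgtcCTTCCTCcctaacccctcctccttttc
Ctss chr3:95526745-95526811 (plus strand): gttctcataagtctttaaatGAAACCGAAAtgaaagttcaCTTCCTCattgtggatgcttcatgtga
The E-box windows of Ctsa, Lgmn and Ctsl lay within the annotated span of the gene, at a start downstream of its outermost base. Distances are from the start used for each window. In Ctsa one E-box began 12 bases before the start and the other at base 6 after it. The E-box shown for Ctsd began 98 bases before the start, with another at 245, that of Lgmn at 49 and that of Ctsl at 236. The PU.1 core lay on the opposite strand in both neighbours, from base 59 before the start in Ctsk, which also had 1 at 233, and from base 1 before it in Ctss, where the interferon-response core began at base 21. These matches are letters in a window and were not measured as bound sites.

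Spinal cord monocytes were set against bone marrow monocytes, both from DKI mice with EAE, to describe monocytes at the inflamed site. With 1 library each there is no test, and the intervals given are exact binomial 95% intervals on estimated reads (Clopper-Pearson), which cover counting error only. All 10 genes were higher in the cord library, where 31.5% of the 8182 genes with at least 5 RPKM in either library were, though Ctsc, 0.09 higher as deposited, was 0.35 lower (log2 difference -0.35) after quantile normalization. Counts at 4-fold and 2-fold use differences of 2 and 1 in log2(RPKM + 1), whereas the folds of single genes are ratios of RPKM, which are further from 1 for low genes. Of the 10, 5 were at least 4-fold higher, where 6.23% of genes were, and 7 were at least 2-fold higher, where 11.5% were. Ctsk is in each of these counts but reached 5 RPKM only in the cord library, which fixed its direction. The median difference was 1.76 over the cathepsins and -0.37 over all genes.

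Ctsk was at 13.2 RPKM in cord monocytes and 0.376 RPKM in marrow monocytes, an estimated 526 and 18 reads. This was 35.0-fold higher in the cord (22.1 to 59.9), at a low level in both. Lgmn was at 476.8 RPKM in cord monocytes and 47.6 RPKM in marrow monocytes, 10.01-fold higher (9.64 to 10.4). The next 3 lay close to the 4-fold line. Ctsl, an endopeptidase that in mice also trims the invariant chain in the thymus, was at 246.0 RPKM in cord and 58.1 RPKM in marrow monocytes, 4.23-fold higher (4.08 to 4.39). Ctss was 4.11-fold higher (4.07 to 4.15) and Ctsd 4.07-fold higher (4.01 to 4.13). Ctsz was 2.84-fold and Ctsb 2.56-fold higher.

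Ctsh, Ctsa and Ctsc differed least. Ctsh was at 469.8 RPKM in cord monocytes and 321.4 RPKM in marrow monocytes, 1.46-fold. Ctsa was at 175.7 RPKM in the cord and 151.5 RPKM in the marrow, 1.16-fold. Ctsc was at 881.3 RPKM in the cord and 827.5 RPKM in the marrow, 1.07-fold. So the pool differed in make-up as well as in size.

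The serine proteases that Ctsc is known to activate differed far more than Ctsc itself. Elane, neutrophil elastase, was at 1.95 in cord monocytes and 7.91 in marrow monocytes, Ctsg, cathepsin G, at 0.77 in cord and 6.08 in marrow, and Prtn3, proteinase 3, at 4.52 in cord and 8.30 in marrow. These 3 were the members of that list of 8 with at least 5 RPKM in either library, and all 3 were at least 4-fold lower in the cord. Elane and Ctsg reached 5 RPKM only in the marrow library, which fixed their direction. Elane and Prtn3 are also markers of neutrophil precursors, whose 8 genes summed to 529.7 RPKM in cord monocytes and 4837 RPKM in marrow monocytes. Their part in these differences was not tested.

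Among cathepsin inhibitors, 5 of 6 were higher in the cord and 3 of them at least 4-fold. Serpina3g, a serpin that blocks cysteine cathepsins, was at 7.17 in cord monocytes and 2.34 in marrow monocytes. Cstb, cystatin B, was at 9.91 in the cord and 7.18 in the marrow, and Ctla2b, which resembles a cathepsin propeptide, at 3.65 in the cord and 0.18 in the marrow. Serpinb1a, an inhibitor of neutrophil serine proteases, was at 1.43 in the cord and 5.57 in the marrow. Serpina3g and Ctla2b reached 5 RPKM only in the cord library and Serpinb1a only in the marrow library, which fixed their direction. Enzyme and inhibitor transcripts were both higher in the cord for most genes counted of either list.

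Other lysosomal genes are set beside the median of -0.37 over all genes. Of 25 other lysosomal hydrolases, 12 were higher and 13 lower, with a median of -0.08, and 3 were at least 4-fold higher and 1 at least 4-fold lower. Acp5, an acid phosphatase, was at 6.23 in cord and 3.25 in marrow monocytes. Gla, alpha-galactosidase, was at 6.51 in the cord and 4.02 in the marrow, and Acp2 at 5.41 in the cord and 2.82 in the marrow, whereas Arsb, arylsulfatase B, was at 2.64 in the cord and 4.71 in the marrow. Of 19 lysosomal membrane genes 10 were higher, with a median of 0.02, and Cd63 was at 5.66 in cord and 3.01 in marrow monocytes, and Clcn7, a chloride transporter, at 6.66 in the cord and 4.69 in the marrow. Of 9 lysosomal sorting genes 4 were higher in the cord and 5 lower, with a median of -0.04. Igf2r, the large mannose 6-phosphate receptor, was at 4.15 in cord and 1.06 in marrow monocytes. It reached 5 RPKM only in the cord library, which fixed its direction. Sort1, sortilin, was at 3.15 in cord and 6.49 in marrow. Of the transcription factors of lysosomal genes, Mitf was at 5.12 in cord and 3.16 in marrow monocytes, while Tfeb was at 4.06 and Tfe3 at 5.12 in the cord, against 4.46 for Tfeb and 5.11 for Tfe3 in the marrow.

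All 9 class II presentation genes were higher in the cord, by 3.999 at the median. Some of the 9, such as H2-Eb1 at 3.60 RPKM in marrow monocytes, reached 5 RPKM only in the cord library, which fixed their direction. Cd74, the invariant chain, was at 12.36 in cord and 5.75 in marrow monocytes. Microglia are known to express Ctss and Ctsd strongly. Of 10 microglia markers, 8 reached 5 RPKM in either library and all 8 were higher in the cord. Most of the 8, such as Tmem119 at 1.86 RPKM in marrow monocytes, reached 5 RPKM only in the cord library, which fixed their direction. The summed level of the 10 was 178.5 RPKM in cord and 16.7 RPKM in marrow monocytes. Tmem119 was at 4.74 in cord and 1.52 in marrow monocytes. Of 10 myeloid markers, 9 were higher in the cord, with a median of 0.29. Their sum was 14710 RPKM in cord and 20410 RPKM in marrow monocytes, with Lyz2, the exception, at 13.18 in the cord and 14.08 in the marrow. What microglial transcripts added to the cathepsin values was not tested.

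**Figure D3:**
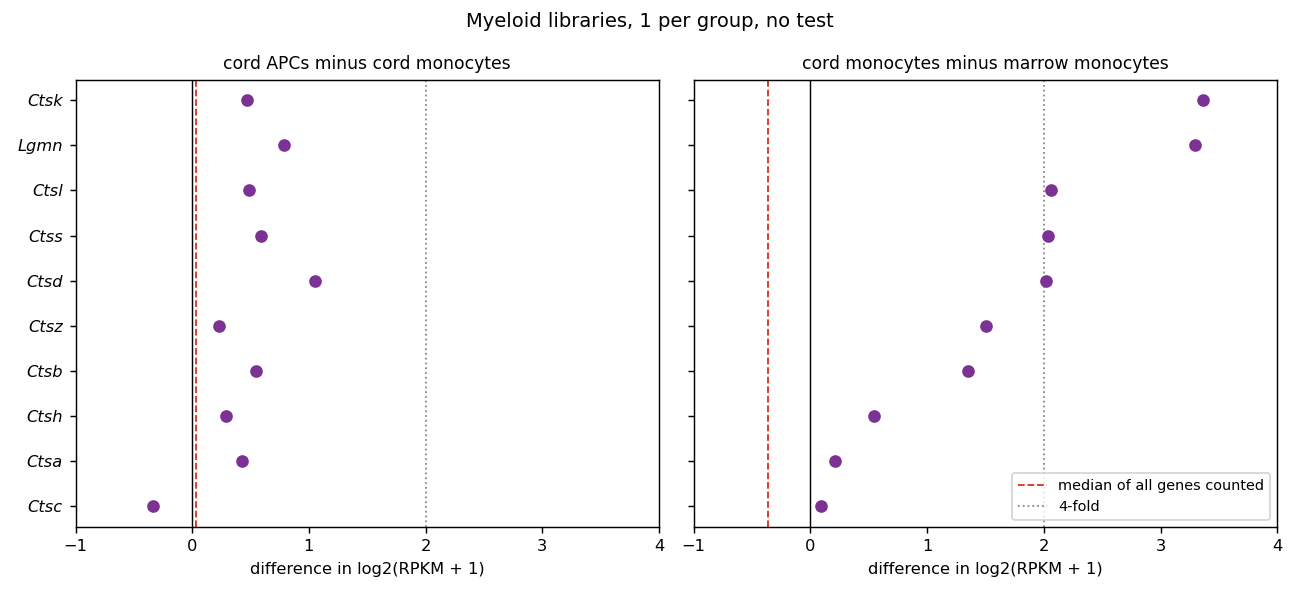
Difference in log2(RPKM + 1) of each cathepsin between spinal cord APCs and spinal cord monocytes (left) and between spinal cord and bone marrow monocytes (right), 1 library per group and no test; the dashed red line is the median of all genes counted and the dotted line is 4-fold. In the right panel 5 of the 10 genes reach the 4-fold line, and in the left panel none does and Ctsc lies below 0.

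Spinal cord APCs were set against spinal cord monocytes in the same way. Of the 10 cathepsins, 9 were higher in the APCs, where 55% of the 7499 genes counted were, and the median difference was 0.48 against 0.03 over all genes. None was 4-fold higher, where 0.24% of genes were, and 1 was 2-fold higher, where 1.55% were. That gene was Ctsd, at 2885 RPKM in APCs and 1395 RPKM in cord monocytes, 2.07-fold (2.05 to 2.09). Lgmn was at 821.2 RPKM in APCs and 476.8 RPKM in cord monocytes, 1.72-fold (1.70 to 1.75).

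Ctss was at 7329 RPKM in APCs and 4867 RPKM in cord monocytes, 1.51-fold as deposited. Since it held rank 7 in both libraries, quantile normalization gave a difference of 0.00. Ctsb, Ctsk, Ctsl, Ctsa, Ctsh and Ctsz were 1.17-fold to 1.46-fold higher. Ctsc alone was lower, at 698.6 RPKM in APCs and 881.3 RPKM in cord monocytes, 0.793-fold (0.786 to 0.799).

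Unlike between cord and marrow, the other hydrolases were higher together: 24 of 25, with a median of 0.50. Cst3, cystatin C, was at 10.38 in APCs and 9.59 in cord monocytes, Cst7, cystatin F, at 5.97 in APCs and 4.91 in cord monocytes, and Ctsf, a further cysteine cathepsin, at 3.31 in APCs and 1.79 in cord monocytes. Cst3 is also abundant in microglia. All 9 class II genes were higher in APCs, by 0.86 at the median. Microglia markers were higher in 9 of 9 counted, with a median of 1.53, and summed to 499.3 RPKM in APCs and 178.5 RPKM in cord monocytes. Myeloid markers differed less, at 15160 RPKM in APCs and 14710 RPKM in cord monocytes, with 5 of 10 higher. Ccr7, a marker of migratory dendritic cells, was at 5.53 in APCs and 1.67 in cord monocytes. Ctsf, Ccr7 and the microglia marker Sall1 were among the genes that reached 5 RPKM only in the APC library, which fixed their direction. Of 5 neutrophil precursor markers counted, 4 were higher in APCs, with a median of 1.15 over the 5, and Prtn3 was at 2.79 in APCs and 4.52 in cord monocytes. The part of these cell types in the cathepsin differences was not tested.

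The Th17 cultures of DKI mice were set against those of WT mice to ask what loss of STAT5 tetramers changes. No cathepsin passed limma at an adjusted p under 0.05. The same was so for all 11078 genes tested, of which 914 were higher and 965 lower at an unadjusted p under 0.05. Ctsk did not reach 1 RPKM in enough libraries to be tested. It was at 0.334 and 0.564 RPKM in DKI cultures and 2.40 and 0.793 RPKM in WT cultures. Of the other 9, 3 were higher in DKI, where 54.7% of genes were, and 6 were lower, where 45.3% were, with a median of -0.10 against 0.03 over all genes.

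Ctsl, Ctsh and Ctss lay lowest. Ctsl was at 2.62 and 3.45 in DKI cultures and 4.05 and 3.53 in WT cultures. Its difference was -0.75 ± 0.28 (SE), with an adjusted p of 0.240 in limma. The libraries did not overlap, but without DKI library 2 the difference was -1.16 and passed, with an adjusted p of 0.0419, as 2.69% of genes did in that direction. Ctsh was at 0.99 and 2.05 in DKI cultures and 2.61 and 2.27 in WT cultures, a difference of -0.92 ± 0.39 (SE, limma adjusted p = 0.284). Ctss was at 6.53 and 7.29 in DKI cultures and 8.01 and 7.28 in WT cultures, a difference of -0.73 ± 0.31 (SE, limma adjusted p = 0.288). DKI library 2 and WT library 2 were alike for Ctss, and the libraries numbered 1 lay furthest apart. These 3 were the cathepsins lower at an unadjusted p under 0.05, as 8.71% of genes were.

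Lgmn was at 3.72 and 4.33 in DKI cultures and 4.67 and 4.56 in WT cultures (difference -0.59 ± 0.37, SE; limma adjusted p = 0.430). Groups did not overlap, lower in DKI, for Ctsb, Ctsh, Ctsl and Lgmn, 4 of 9, where 20.1% of genes showed this. Ctsd was at 7.65 and 7.73 in DKI cultures and 7.73 and 7.61 in WT cultures. Its interval for the difference, -0.34 to 0.39, spans a change of either sign, as does that of Ctsz, -0.43 to 0.63. Ctsa and Ctsc differed by -0.04 and 0.16.

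Myeloid markers were lower too. All 7 tested myeloid markers were lower in DKI, with a median of -0.99, and none passed. Their sum was 13.3 and 27.1 RPKM in DKI cultures and 77.2 and 36.9 RPKM in WT cultures, with WT library 1 highest, as it was for Ctsl, Ctsh and Ctss. Tyrobp, an adaptor of myeloid receptors, was at 2.00 ± 0.44 in DKI cultures and 3.35 ± 0.59 in WT cultures (SD, n = 2 each). Cd68, a lysosomal membrane protein of macrophages, was at 3.02 ± 0.06 in DKI cultures and 3.95 ± 0.56 in WT cultures (SD, n = 2 each). The part of myeloid transcripts in the cathepsin differences was not tested. Of the other lysosomal hydrolases 12 were higher and 13 lower, with a median of -0.01. Ctsw, a cathepsin of cytotoxic and NK cells, was at 4.74 ± 0.21 in DKI cultures and 4.72 ± 0.21 in WT cultures (SD, n = 2 each), and Ctse, an aspartic protease outside the list of 10, at 3.43 ± 0.18 in DKI and 4.03 ± 0.04 in WT cultures (SD, n = 2 each), with a limma adjusted p of 0.159.

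DKI cultures with CCL17 were set against DKI cultures of the same experiment without it, 3 libraries each. All 10 cathepsins were lower with CCL17, where 54.2% of the 11297 genes tested were, and their median difference was -0.28 against -0.01 over all genes. None passed limma. No gene of the table passed either, in either direction, and 239 were higher and 172 lower at an unadjusted p under 0.05. With the replicate number as a block, none of the 10 passed and all 10 were lower at an unadjusted p under 0.05, as 8.3% of genes were. The smallest adjusted p among them was 0.0654 in that limma fit, for Ctsl.

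Ctsl showed the largest difference. It was at 6.63, 6.89 and 6.87 with CCL17 and at 6.94, 7.41 and 7.32 without, and was the 1 cathepsin whose groups did not overlap, as 4.28% of genes did in that direction. The difference was -0.43 ± 0.14 (SE), 0.742-fold, with an unadjusted p of 0.0195 and an adjusted p of 0.999 in limma. Ctsk was at 3.47, 4.35 and 4.39 with CCL17 and at 3.52, 4.82 and 4.83 without. Library 1 was far below the others in both groups, and the difference of -0.32 had an interval of -1.33 to 0.69. Ctss was at 8.42, 8.76 and 8.75 with CCL17 and at 8.62, 9.09 and 9.14 without, a difference of -0.31 ± 0.17 (SE).

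Lgmn was at 6.56, 7.27 and 7.36 with CCL17 and at 6.75, 7.67 and 7.68 without, a difference of -0.30 ± 0.32 (SE). Ctsd was at 8.82, 9.03 and 9.08 with CCL17 and at 8.99, 9.35 and 9.43 without, a difference of -0.28 ± 0.14 (SE). In each of these genes the 2 libraries numbered 1 were the lowest of their group. The remaining differences were -0.29 for Ctsb, -0.24 for Ctsz, -0.20 for Ctsh, -0.17 for Ctsa and -0.16 for Ctsc.

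Within same-numbered pairs, 9 of 10 cathepsins were lower with CCL17 in all 3 pairs, where 20.1% of genes were. The exception was Ctsh in pair 1, at 0.01. The 10 genes were read in the same 3 pairs of libraries and are not separate replicates of the treatment. Pair 1 gave the smallest difference for 9 of the 10 genes, all but Ctsc. Without the libraries numbered 1, an alternative chosen after seeing the data that leaves 2 libraries a group, 9 of 10 passed limma as lower with CCL17, where 1.13% of 11192 genes did. Ctsl was then at -0.49 ± 0.04 (SE, limma adjusted p = 0.0131) and Ctsk at -0.45 ± 0.05 (SE, limma adjusted p = 0.0134). Ctsc was the exception, at -0.17 (limma adjusted p = 0.118). With the block added, 9 passed, where 3.36% of genes did. In both fits the spread is that between numbers 2 and 3, which differed by only 2.22 and 2.36 times the counting variance per gene. Their small SE and p-values may thus measure technical spread. With all libraries of the experiment none of the 10 passed.

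**Figure D4:**
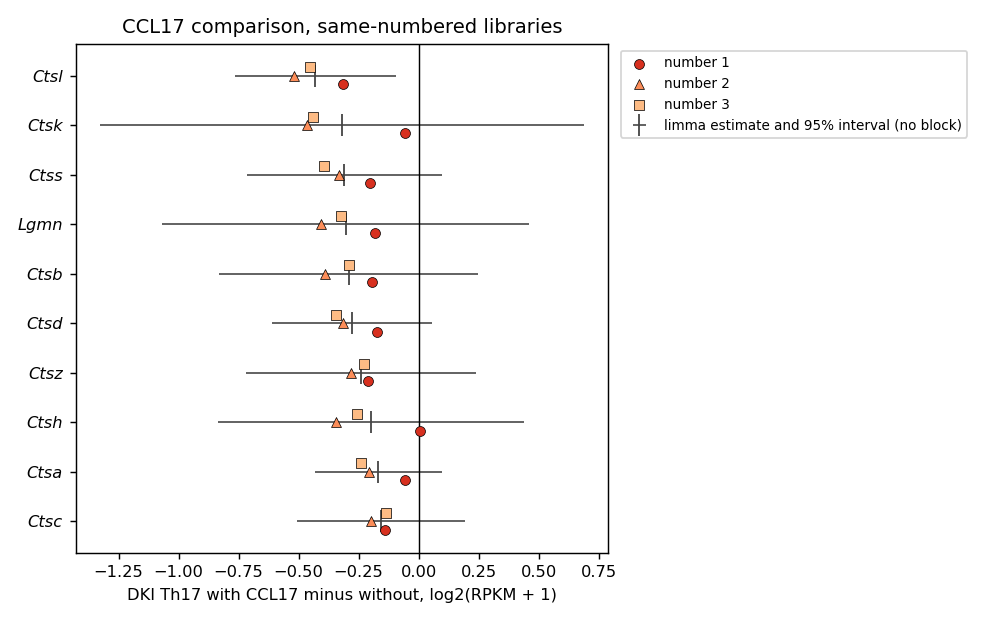
Difference in log2(RPKM + 1) between DKI Th17 libraries with and without CCL17, for each cathepsin: symbols are the 3 same-numbered pairs, and the line with a tick is limma's estimate with its 95% interval without a block. All symbols but that of Ctsh in pair 1 lie below 0, and the genes share the same 3 pairs of libraries. Limma's interval excludes 0 for Ctsl, which has an unadjusted p of 0.0195 and an adjusted p of 0.999.

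Most other lysosomal genes and myeloid markers listed were also lower with CCL17, and none passed limma. Of 20 lysosomal membrane genes 19 were lower, with a median of -0.14, and Atp6v0d2, a proton pump subunit of macrophages and osteoclasts, was at 4.003 ± 0.274 with CCL17 and 4.518 ± 0.376 without (SD, n = 3 each). Of 25 other hydrolases 22 were lower, with a median of -0.08, as were 10 of 13 cathepsin inhibitors, with a median of -0.14. All 4 lysosomal transcription factors were lower, of which Tfec, a myeloid relative of TFEB, was at 3.21 ± 0.42 with CCL17 and 3.61 ± 0.49 without (SD, n = 3 each). All 10 myeloid markers were lower with CCL17, with a median difference of -0.21. Their sum was 554.5 to 688.8 RPKM with CCL17 and 573.4 to 837.6 RPKM without. All 7 B cell markers tested were higher with CCL17, by 0.16 at the median, as were 5 of 7 neutrophil precursor markers, with a median of 0.14 and a sum of 128.8 to 453.6 RPKM with CCL17 and 121.6 to 318.1 RPKM without. Class II genes were lower in 6 of 9, with a median of -0.03. The part of myeloid transcripts in the cathepsin differences was not tested.

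DKI cultures without CCL17 from the CCL17 experiment were also set against the separate DKI cultures. Genotype and the absence of added CCL17 are the same by label, and the experiment and any other difference between these sets cannot be told apart. All 10 cathepsins were higher in the CCL17 experiment's cultures, where 48.6% of 11507 genes were. By limma 9 of them rose, where 15.4% of genes did, and none fell, where 17.8% did. The median difference was 2.02 against -0.01 over all genes. Ctsk, at 0.334 and 0.564 RPKM in the separate DKI cultures, reached 1 RPKM only in the other set, which fixed its direction.

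Ctsl was at 6.94, 7.41 and 7.32 in cultures without CCL17 and at 2.62 and 3.45 in the separate DKI cultures. It rose by 4.19 ± 0.26 (SE, limma adjusted p = 4.21e-05), 18.2-fold on the scale of RPKM + 1. Ctsk was at 3.52, 4.82 and 4.83 in cultures without CCL17 and at 0.42 and 0.65 in the separate DKI cultures, and rose by 3.86 ± 0.46 (SE, limma adjusted p = 0.000705). Ctsh was at 4.50, 5.38 and 5.29 in cultures without CCL17 and at 0.99 and 2.05 in the separate ones, and rose by 3.53 ± 0.36 (SE). Lgmn was at 6.75, 7.67 and 7.68 in cultures without CCL17 and at 3.72 and 4.33 in the separate ones, and rose by 3.34 ± 0.34 (SE). All libraries of one set lay above all of the other for these 4 genes.

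Ctss, Ctsb, Ctsz, Ctsd and Ctsc, already abundant in the separate DKI cultures, rose by less: 2.04, 2.01, 1.76, 1.57 and 1.04. Adjusted p in limma was at most 0.00342 among these 5. Ctsa was at 5.44, 5.76 and 5.80 in cultures without CCL17 and at 5.12 and 5.59 in the separate ones. Its difference of 0.31 did not pass (limma adjusted p = 0.225), and the sets overlapped.

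Markers of other cell types moved with this difference. All 10 myeloid markers rose, with a median of 3.73, and their sum was 573.4 to 837.6 RPKM in cultures without CCL17 and 13.3 and 27.1 RPKM in the separate DKI cultures. Lyz2, lysozyme, rose by 5.91. All 7 tested B cell markers rose, with a median of 2.06, and 5 of 6 neutrophil precursor markers rose. Some of these markers reached 1 RPKM only in cultures without CCL17, which fixed their direction. Among them were Blk and Prtn3, at means of 0.37 and 0.04 in the separate DKI cultures. Of 8 T cell markers 4 fell, with a median of -0.31. Their part in the cathepsin difference was not tested.

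Lysosomal genes known from macrophages rose beside the cathepsins: Cd68 by 4.48, Cd63 by 3.91 and Psap, the precursor of sphingolipid activators, by 2.52. Over all 20 membrane genes 11 rose and 1 fell, with a median of 0.64, and over 25 other hydrolases 7 rose and 4 fell, with a median of 0.23. Over the 9 sorting genes, the list that holds Psap, 3 rose and none fell, with a median of 0.10. Tfec rose by 3.27, while Tfeb and Tfe3 differed by -0.16 and 0.07 and did not pass (limma adjusted p = 0.287 and 0.590). Among cathepsins outside the list of 10, Ctsg rose by 2.44, and Ctsw, Ctse and Ctsf fell by 1.87, 0.77 and 0.59. Cd63, Tfec and Ctsg reached 1 RPKM only in cultures without CCL17 and Ctsf only in the separate ones, which fixed their direction. Cathepsin inhibitors rose in 8 of 13 cases and fell in 1, with Cstb up by 1.12 and Ctla2b down (-0.56).

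**Figure D5:**
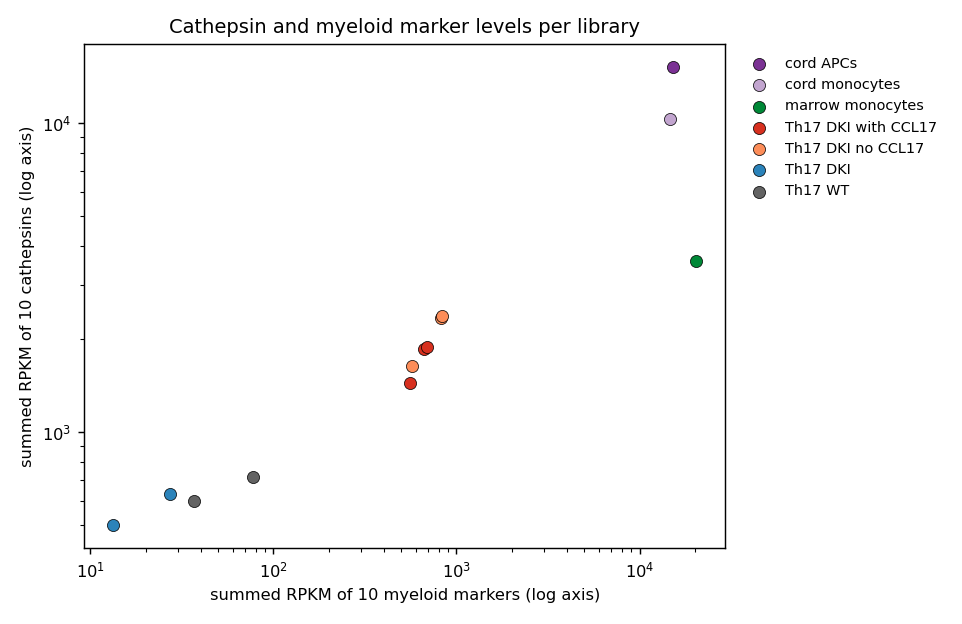
Summed RPKM of the 10 cathepsins (vertical log axis) against summed RPKM of 10 myeloid markers (horizontal log axis), 1 point per library, coloured by group. The separate DKI cultures, at 500.2 and 631.3 RPKM of cathepsins, and the WT cultures lie at the lower left. The CCL17 experiment lies in the middle and the myeloid libraries at the right. Marrow monocytes hold 3588 RPKM of cathepsins at 20410 RPKM of myeloid markers, and APCs 15210 RPKM of cathepsins at 15160 RPKM of markers. Lyz2 alone makes up 17293 RPKM of the marker sum in marrow monocytes and 10050 RPKM in APCs, so the horizontal position mostly follows Lyz2 there.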

How the data were processed

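Per the labels' protocols, libraries were made from column-purified RNA with the KAPA mRNA HyperPrep kit. The submitters' processing notes name Subread, featureCounts and mm10, with no version, setting or use of strand given in the sources used here. The authors deposited log2(RPKM + 1) for 21073 genes, of which 20857 matched the symbol table by identifier and 216 did not. A gene with no read is written there as 0.0001, and this was taken as 0. For the APC library, the header gives only the abbreviation MDC, taken here to mean monocyte-derived cells of the cord. That column was matched to the APCs as the last unassigned one. Depth was estimated from the spacing of low values, and 74.6% to 76.5% of values up to 5 reads then lay within 0.1 reads of a whole number, against 20% for even spread.

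The members and the gene lists were chosen with earlier results of these data known. Th17 groups were compared with limma 3.58.1 (R 4.3.3, eBayes with trend, two-sided) and Benjamini-Hochberg adjustment over all genes tested, those with RPKM of at least 1 in at least 2 libraries (3 for CCL17). The CCL17 comparison was fitted on its own 6 libraries, and the other 2 Th17 comparisons on all 10. Myeloid groups were compared by size, at 4-fold (a difference of 2 in log2(RPKM + 1)), among genes reaching an RPKM of 5 in either. Fitted folds are on the log2(value + 1) scale, which understates the change of low genes, and folds printed for single myeloid genes are ratios of RPKM. Besides the 10 members, up to 4 genes of each list per comparison were open to be named, those with the smallest p or the largest difference. A few genes open to be named in this way are not reported here.

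In the CCL17 experiment, deviations of same-numbered libraries from their group means correlated at 0.77, 0.51 and 0.52 across genes, so the number was taken to pair them, on the data and not on a label. Numbers 2 and 3 also correlated across numbers (0.50 and 0.53). The procedure was tested on simulated data.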

Additional observations from a re-analysis of the deposited data

How the results depend on the processing

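Directions of members held under the alternatives run (pseudocount of 0.1, no filter, other scalings, no trend, other libraries in the fit, each library left out, and the replicate block), with the exceptions given here; the cause of these was not tested. Quantile normalization gave 0.00 for Ctss between APCs and cord monocytes, -0.35 for Ctsc between cord and marrow monocytes and -0.094 for Ctsd between DKI and WT cultures. It gave a cathepsin median of 1.26 and 3 members past 4-fold between cord and marrow monocytes, and 1 gene higher and 3 lower between DKI and WT. Centring each library gave cathepsin medians of 0.43 for APCs against cord monocytes and 2.065 for cord against marrow monocytes. At 2-fold, 116 genes were higher and 71 lower in APCs, with 1 member higher, and 937 higher and 1557 lower in cord monocytes.

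Between DKI and WT cultures, leaving out 1 library gave 0 to 285 genes higher and 0 to 295 lower (both highest without DKI library 2), and 0 to 1 member lower (Ctsl); a lone library is then assumed to vary like the other groups. The differences then ranged from -0.28 to 0.19 for Ctsa, -0.012 to 0.329 for Ctsc, -0.038 to 0.085 for Ctsd and -0.081 to 0.283 for Ctsz. With the replicate block 811 genes were higher and 470 lower, and no member passed, while Tyrobp, Cd68 and Ctse passed as lower in DKI (limma adjusted p = 0.0456, 0.0313 and 0.0366); with only 2 pairs (correlation 0.45) the samples share only a number. For cultures without CCL17 against the separate DKI cultures, 1109 to 1790 genes were higher and 1404 to 1814 lower with 1 library left out, 9 members passed each time, and a fit of those 5 libraries gave 1224 lower. With the block (correlations of 0.13 and 0.10) 1530 were higher and 1794 lower, and 9 members passed. For CCL17, the block gave 2 genes higher and 0 lower and changed no call among the members. Without the libraries numbered 1 (both fits chosen after seeing the data), 86 genes were higher and 127 lower, or 201 and 376 with the block, and 9 members passed in both. The block changed no call among the members in any comparison. Depth limits Ctsk in marrow monocytes, with 18 estimated reads.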
